A study of Bos taurus with 2 samples.

Results

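The genes described here are 39 transcripts of the cell division cycle, 19 that act in S phase and 20 that act in G2 and mitosis, read in bovine blastocysts and in the blastocyst-like structures called 3L blastoids. They were chosen by symbol and not by any measured value, and all 39 were found among the 35643 features of both libraries. The S phase genes are MCM2 to MCM7, PCNA, RRM1, RRM2, TYMS, GINS2, CDC6, CDC45, CHAF1B, SLBP, DTL, POLA1, E2F8 and CLSPN. The G2/M genes are TOP2A, MKI67, CENPE, CENPF, CDK1, CCNB1, CCNB2, BUB1, BUB1B, AURKA, AURKB, KIF11, KIF23, TPX2, NUF2, NDC80, ANLN, HMMR, UBE2C and PLK1. Blastoids were wild type (WT) aggregates of 3 bovine stem cell types, with 8 bEPSC, 8 bXEN and 16 bTSC seeded per microwell. The labels describe the removal of mouse feeder cells (iMEF) before aggregation in ACL medium with LIF, ActivinA, Chir99021 and the CEPT cocktail. The blastocysts were WT embryos of day 8. Both were frozen before nuclei were isolated for droplet single-nucleus RNA sequencing, and the number of structures or embryos pooled was not given in the sources used here. Each group is 1 library, so differences between blastoid and blastocyst have no replicate check and no test was made. Intervals are 95% and cover counting error only.

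As background, a dividing cell copies its DNA in S phase and separates the copies in mitosis, and transcripts of the 2 sets rise in turn under E2F factors and then under the B-MYB and FOXM1 programme. The MCM proteins form the replicative helicase, which CDC6 loads and CDC45 and GINS activate, while the G2/M set holds the mitotic kinases, kinetochore proteins, spindle motors and cytokinesis proteins. In the blastocyst the trophectoderm, the future placental epithelium, surrounds the epiblast, which forms the embryo, and the hypoblast, which forms yolk sac. All 3 lineages divide at this stage, and trophoblast cells of ruminants can later become binucleate by dividing their nuclei without cytokinesis.

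The blastoid library held 1957 barcodes and 7575395 UMIs (unique molecules), of which 288 barcodes had at least 4000 UMIs and 287 were kept. From the blastocysts came 944 barcodes with 7029253 UMIs together. At or above that minimum were 693 of them, and 689 were kept. Kept blastoid nuclei had a median of 13042 UMIs and kept blastocyst nuclei 8591, and ribosomal protein transcripts made up 2.54% and 0.861% of their UMIs. The libraries shared 1 barcode and none among those kept. Clustering without cell-cycle genes, with names given from lineage markers, gave a trophectoderm-like class of 227 nuclei in the blastocyst, a hypoblast-like class of 264 and an epiblast-like class of 70. It left 100 blastocyst nuclei unnamed and set 28 apart for high ribosomal content, at 3.26% of their UMIs. The blastoid gave 146 trophectoderm-like nuclei and 141 unnamed ones, and no hypoblast-like or epiblast-like class. The trophectoderm-like names are not clean: the hypoblast marker list summed to 5520 CPM there in the blastocyst against 4076 CPM for the trophectoderm list, with SOX17 and FOXA2 at 0. In the blastoid trophectoderm-like class the same lists summed to 5491 and 4692 CPM, and 24 of 24 hypoblast markers were detected. In epiblast-like nuclei the epiblast list summed to 1756 CPM and the hypoblast list to 4999.6 CPM, with FOXA2 at 0. APOB, AFP and TTR were at 0 in all blastocyst classes, the hypoblast-like one included. Fibroblast markers summed to at most 28.7 CPM and mesoderm markers to at most 9.23 CPM in the 5 classes compared below. CPM are UMIs of a gene or list per 1000000 UMIs of all genes in the class.

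Within the blastocyst, S phase genes were lower in trophectoderm-like nuclei than in hypoblast-like and epiblast-like nuclei, and the lower level came from some members and not from others. The 19 genes summed to 1308 CPM (1262 to 1356) in the trophectoderm-like class, 1644 CPM (1590 to 1698) in the hypoblast-like class and 1755 CPM (1657 to 1857) in the epiblast-like class. The summed level was 1.26 times higher in hypoblast-like and 1.34 times higher in epiblast-like than in trophectoderm-like nuclei. The 28 ribosomal-high nuclei, which were kept apart, also carried trophectoderm markers. Their trophectoderm list sum, 8330 CPM, was the highest of the blastocyst classes, and their S phase sum was 1868 CPM (1705 to 2043). The lower S phase level therefore holds for the named trophectoderm-like class and not for all trophectoderm-marked nuclei. Against hypoblast-like nuclei 3 of 19 were at least 2-fold lower in trophectoderm-like nuclei (GINS2, CLSPN and E2F8), beside 18.2% of all genes tested, so this count is near the background. None of the 19 was at least 2-fold higher, beside 15.2% of all genes. The median log2 ratio of the 19 was -0.57, beside -0.19 over all genes. Against epiblast-like nuclei 5 of the 18 genes with enough UMIs were at least 2-fold lower (GINS2, CLSPN, MCM2, MCM3 and MCM4) and none was higher, beside 17.7% and 15% of all genes, with medians of -0.52 and -0.08. Hypoblast-like and epiblast-like nuclei were close to each other, with 0 of the S phase genes at least 2-fold higher or lower, beside 6.12% and 7.26% of all genes.

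The helicase genes and their partners were not uniform. MCM7, a helicase subunit, was read at 84.9 CPM in trophectoderm-like, 161 CPM in hypoblast-like and 167 CPM in epiblast-like nuclei. MCM2, MCM3 and MCM4 followed the same order, at 20.0, 35.2 and 43.1 CPM in trophectoderm-like nuclei, and were 1.76, 1.70 and 1.73 times higher in hypoblast-like nuclei. MCM6 stood at 34.8, 51.7 and 54.3 CPM in that order of classes. MCM5, the remaining subunit, was much more even, at 19.6, 20.6 and 24.9 CPM. GINS2, a subunit of the complex that activates the helicase, had the widest range of the well-covered S phase genes. It was read at 31.8 CPM in trophectoderm-like, 97.4 CPM in hypoblast-like and 147 CPM in epiblast-like nuclei, and was 3.07 times higher (2.34 to 4.06) in hypoblast-like than in trophectoderm-like nuclei. CDC6, which loads the helicase, ran the other way at 40.5, 24.7 and 22.0 CPM, 1.64 times higher (1.16 to 2.34) in trophectoderm-like than in hypoblast-like nuclei. CDC45, a helicase cofactor, stood at 20.9, 18.7 and 30.8 CPM.

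Genes of nucleotide supply did not move as a block. RRM1, the large subunit of ribonucleotide reductase, was lower in trophectoderm-like nuclei, at 66.6 CPM against 112 CPM in hypoblast-like and 103 CPM in epiblast-like nuclei. RRM2, the small subunit of the same enzyme, showed no such difference, at 103, 96.0 and 77.8 CPM. TYMS, which makes thymidylate, stood at 72.2, 97.8 and 101 CPM. CLSPN, the checkpoint mediator claspin that travels with the fork, was read at 68.3 CPM in trophectoderm-like nuclei against 165 and 173 CPM in the other classes, 2.42 times higher (2.00 to 2.93) in hypoblast-like nuclei. CHAF1B, a subunit of the chromatin assembly factor, stood at 31.8, 48.5 and 42.5 CPM. The polymerase clamp PCNA, the histone mRNA binding protein SLBP and the ubiquitin ligase adaptor DTL differed little, at 20.9, 17.8 and 23.5 CPM for PCNA, 59.6, 52.6 and 60.1 CPM for SLBP and 136, 130.3 and 129 CPM for DTL. POLA1, the catalytic subunit of DNA polymerase alpha, stood at 418, 372 and 380.0 CPM and was the S phase gene with the most UMIs in each class. It gave 31.9% of the UMIs of the 19 S phase genes in trophectoderm-like, 22.6% in hypoblast-like and 21.7% in epiblast-like nuclei (UMIs are not scaled by gene length, so this is a share of molecules and not a rank of expression). E2F8, an atypical E2F repressor of S phase genes, was the scarcest member, with 4 UMIs in trophectoderm-like and 16 UMIs in hypoblast-like nuclei.

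**Figure D1:**
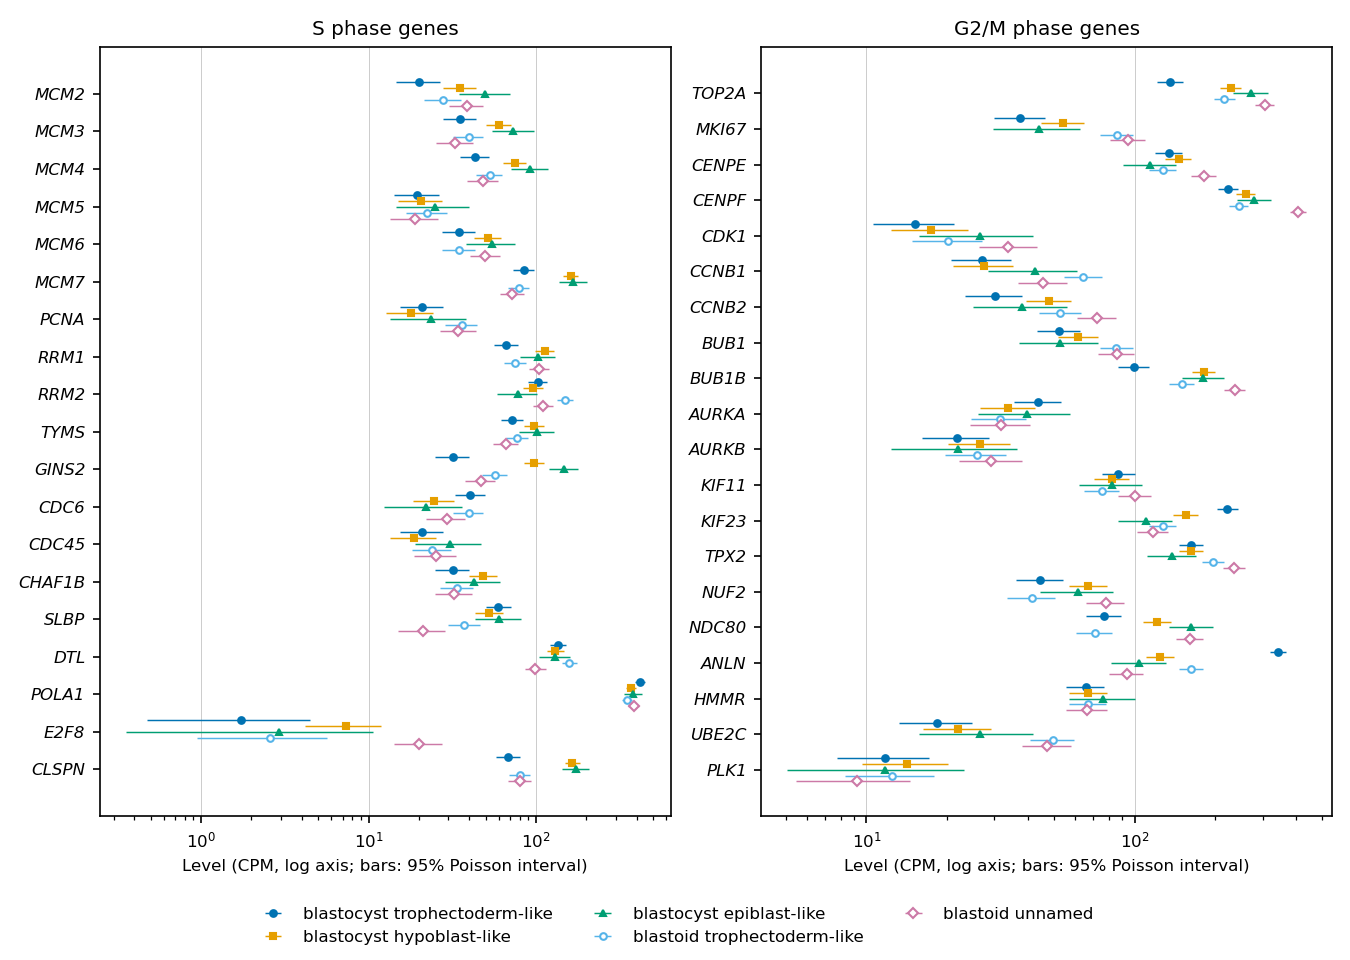
Level of each of the 39 genes in CPM on a log axis, by class, with points for the summed counts of a class and bars for exact 95% Poisson intervals. POLA1 and CENPF sit at the high end in all classes and ANLN in blastocyst trophectoderm-like nuclei. E2F8 sits lowest in all classes but the unnamed blastoid nuclei, where PLK1 and MCM5 lie under it. GINS2 and CLSPN spread apart between blastocyst lineages while MCM5 stays close together.

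The G2/M genes as a group were read at nearly the same summed level in the blastocyst lineages, at 1851 CPM (1796 to 1908) in trophectoderm-like, 1899 CPM (1842 to 1958) in hypoblast-like and 1884 CPM (1782 to 1990) in epiblast-like nuclei. This even sum joined genes that differed in opposite directions. Against hypoblast-like nuclei, 1 of 20 was at least 2-fold higher in trophectoderm-like nuclei (ANLN) and none was at least 2-fold lower, and the median log2 ratio was -0.23. Against epiblast-like nuclei 2 of 20 were at least 2-fold higher (ANLN and KIF23) and 1 was lower (NDC80), with a median of -0.22. Those shares lie under the shares of all genes given above. None of the 20 passed 2-fold in either direction between hypoblast-like and epiblast-like nuclei.

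The member most clearly higher in trophectoderm-like nuclei was ANLN. ANLN, which encodes the contractile ring scaffold anillin, was read at 343 CPM in trophectoderm-like, 124 CPM in hypoblast-like and 104 CPM in epiblast-like nuclei. The ratio to hypoblast-like nuclei was 2.76 (2.40 to 3.18), and to epiblast-like nuclei 3.30. After thinning each nucleus to 4000 UMIs, ANLN was detected in 62.1% of trophectoderm-like nuclei (55.5% to 68.5%), 36.0% of hypoblast-like and 28.6% of epiblast-like nuclei. ANLN also serves as a general actin-binding scaffold, and it gave 18.5% of the UMIs of the 20 G2/M genes in trophectoderm-like nuclei against 6.55% in hypoblast-like nuclei. KIF23, the motor of the central spindle, stood at 222 CPM in trophectoderm-like, 155 CPM in hypoblast-like and 110.0 CPM in epiblast-like nuclei, and was 1.43 times higher (1.25 to 1.65) in trophectoderm-like than in hypoblast-like nuclei.

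Several kinetochore and checkpoint genes, and TOP2A, were lower in trophectoderm-like nuclei. TOP2A, the topoisomerase that untangles sister chromatids, was read at 136, 228 and 271 CPM in the trophectoderm-like, hypoblast-like and then epiblast-like class. BUB1B, a spindle checkpoint protein, stood at 99.2, 181 and 180.4 CPM, and was 1.82 times higher (1.55 to 2.16) in hypoblast-like than in trophectoderm-like nuclei. NDC80, which binds microtubules at the kinetochore, stood at 77.0, 122 and 163 CPM, and its partner NUF2 at 44.4, 67.2 and 61.6 CPM. The other kinetochore genes were closer, with the checkpoint kinase BUB1 at 52.2, 61.7 and 52.8 CPM, the kinetochore motor CENPE at 134, 146 and 114 CPM, and the kinetochore protein CENPF at 224, 259 and 279 CPM. The mitotic kinases and cyclins were scarce: CDK1, the kinase that drives mitotic entry, stood at 15.2, 17.4 and 26.4 CPM, and its cyclins CCNB1 at 27.0, 27.4 and 42.5 CPM and CCNB2 at 30, 48.0 and 38.1 CPM. The spindle kinase AURKA stood at 43.5, 33.8 and 39.6 CPM, the chromosomal passenger kinase AURKB at 21.8, 26.5 and 22.0 CPM, and the mitotic kinase PLK1 at 11.7, 14.2 and 11.7 CPM. The spindle motor KIF11 (87.0, 82.3 and 82.2 CPM), the spindle assembly factor TPX2 (162, 162 and 138 CPM) and the spindle protein HMMR (65.7, 67.2 and 76.3 CPM) differed little. The proliferation antigen MKI67 stood at 37.4, 54.0 and 44.0 CPM, and UBE2C, a ubiquitin-conjugating enzyme of the anaphase-promoting complex, at 18.3, 21.9 and 26.4 CPM.

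Between the blastoid and blastocyst trophectoderm-like classes the sums of both phases were close. The S phase sum was 1377 CPM (1330 to 1426) in the blastoid class and 1308 CPM in the blastocyst class, a ratio of 1.05 (1.00 to 1.11). The G2/M sum was 1908 CPM (1852 to 1965) against 1851 CPM, a ratio of 1.03 (0.988 to 1.08). None of the 19 S phase genes was at least 2-fold higher or lower in the blastoid class, beside 20.2% of all genes higher and 14.5% lower, and 3 of 20 G2/M genes were higher and 1 lower. The G2/M counts are under those shares too, so they are no result about the G2/M genes as a group. Both medians were 0.19 in log2, beside 0.10 over all genes. Median UMIs per nucleus were 14843 in the blastoid class and 9020 in the blastocyst class, and their part in these ratios, like that of the ribosomal share, was not tested.

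The 3 G2/M genes higher in the blastoid trophectoderm-like class were UBE2C, CCNB1 and MKI67. UBE2C was read at 49.4 CPM (115 UMIs) against 18.3 CPM (42 UMIs), a ratio of 2.70 (1.88 to 3.95). CCNB1 stood at 64.5 against 27.0 CPM, a ratio of 2.39 (1.77 to 3.27), and MKI67 at 85.9 against 37.4 CPM, a ratio of 2.30 (1.78 to 2.99). All 3 were also at least 2-fold higher in blastoid barcodes under 4000 UMIs than in kept blastoid nuclei (CCNB1 at 114 against 55.9 CPM), and the part of such RNA in these ratios was not tested. Smaller differences in the same direction were found for CCNB2 (52.9 CPM, ratio 1.76), BUB1 (85.5 CPM, 1.64), TOP2A (216 CPM, 1.59) and BUB1B (150 CPM, 1.51). Of the S phase genes, GINS2 (56.7 CPM, 1.79), PCNA (36.1 CPM, 1.73) and RRM2 (149.6 CPM, 1.46) were higher than in the blastocyst class.

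ANLN, KIF23 and a few others ran the other way. ANLN stood at 163 CPM in blastoid and 343 CPM in blastocyst trophectoderm-like nuclei, 2.11 times lower (1.86 to 2.39) in the blastoid. KIF23 stood at 128 against 222 CPM, 1.74 times lower (1.5 to 2.01). SLBP was 1.59 times lower (1.21 to 2.11), at 37.4 against 59.6 CPM, AURKA 1.39 times lower and POLA1 1.19 times lower. ANLN and KIF23 in the blastoid class were nearer their levels in blastocyst hypoblast-like nuclei (124 and 155 CPM) than those in blastocyst trophectoderm-like nuclei. The helicase subunits MCM2 to MCM7 stood between 22.3 CPM (MCM5) and 78.6 CPM (MCM7) in the blastoid class.

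The unnamed blastoid nuclei carried more G2/M signal than the trophectoderm-like ones. The G2/M sum was 2430 CPM (2361 to 2500) against 1908 CPM, a ratio of 1.27 (1.22 to 1.33), while the S phase sum was 1312 CPM (1262 to 1364) against 1377 CPM. At least 2-fold higher were 1 of 20 G2/M genes (NDC80) and 1 of 19 S phase genes (E2F8), beside 21.5% of all genes, and none of the 39 was 2-fold lower, beside 17.2%. The medians were 0.22 and -0.12 in log2, beside 0.02 over all genes. NDC80 was read at 161 CPM against 70.9 CPM, a ratio of 2.26 (1.87 to 2.75), and its partner NUF2 at 78.0 against 41.3 CPM, a ratio of 1.89. CENPF stood at 407 against 245 CPM (ratio 1.66, 1.49 to 1.85), BUB1B at 236 against 150 CPM (1.57) and CENPE at 181 against 127 CPM (1.42). The checkpoint kinase BUB1 was level, at 85.7 against 85.5 CPM. CDK1 was 1.68 times higher, at 33.9 against 20.2 CPM, and TOP2A 1.42 times higher, at 306 against 216 CPM. E2F8 had 39 UMIs in unnamed and 6 in trophectoderm-like nuclei, a ratio of 7.76 (3.26 to 22.4).

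Other members were lower in the unnamed blastoid nuclei. SLBP stood at 21.0 CPM against 37.4 CPM, 1.78 times lower, and ANLN at 93.3 against 163 CPM, 1.74 times lower. DTL was 1.60 times lower (99.0 against 158 CPM), CCNB1 1.41 times lower (45.6 against 64.5 CPM) and RRM2 1.36 times lower. A fixed list of neural markers summed to 6271 CPM in the unnamed nuclei and 200.3 CPM in the trophectoderm-like ones, while the epiblast list summed to 260.04 CPM with FGF4 and KLF17 at 0. The part of this cell mixture in the G2/M difference was not tested.

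Over all kept nuclei, with no use of class names, the blastoid G2/M sum was 1.14 times and the S phase sum 0.883 times that of the blastocyst. Of the G2/M genes, 1 of 20 was at least 2-fold higher (UBE2C, 2.39 times) and none lower. Of the S phase genes, 1 of 19 was at least 2-fold higher (E2F8, 45 against 29 UMIs, 2.38 times) and none lower. Both counts lie under the background of 21.9% of all genes higher and 15.2% lower. The median log2 ratios were 0.24 for G2/M and -0.12 for S phase genes, beside 0.04 over all genes. The named classes differ between the libraries, and the part of this mix in the whole-library ratios was not tested.

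The balance between the phases was taken as G2/M UMIs per S phase UMI. It was 1.42 (1.35 to 1.48) in blastocyst trophectoderm-like, 1.16 (1.10 to 1.21) in hypoblast-like and 1.07 (0.991 to 1.16) in epiblast-like nuclei, and the intervals of the last 2 overlap. Blastoid trophectoderm-like nuclei had 1.39 (1.32 to 1.45), which overlaps the blastocyst class of that name. Unnamed blastoid nuclei had 1.85 (1.76 to 1.94), above the other classes, and the shallow blastoid barcodes had a like value of 1.84. The part of shallow RNA in the value of the unnamed class was not tested. The unnamed blastocyst nuclei had 1.38 and the ribosomal-high ones 0.554. The balance rests on raw UMIs, so nuclei with many UMIs weigh more, and with every nucleus weighted equally it was 1.29, 1.08 and 1.05 in the 3 blastocyst lineages and 1.32 and 1.75 in the blastoid classes. Clusters within a class also differed: the hypoblast-like clusters had 1.24, 0.959 and 1.27, the blastoid trophectoderm-like clusters 1.49 and 1.19, and the unnamed blastoid clusters 1.80, 2.29 and 1.62, whereas the blastocyst trophectoderm-like clusters had 1.42 and 1.41. The unnamed cluster at 2.29 had the lowest median depth of the unnamed blastoid clusters, at 9183.5 UMIs. The nuclei vary more in G2/M counts than Poisson counting gives, so these intervals are too narrow as a measure of spread between nuclei. POLA1 and CENPF had the most UMIs of their phase in both libraries, and without them the balance was 1.83, 1.29 and 1.17 in the blastocyst lineages and 1.62 and 2.18 in the blastoid classes, in the same order of classes within each library.

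**Figure D2:**
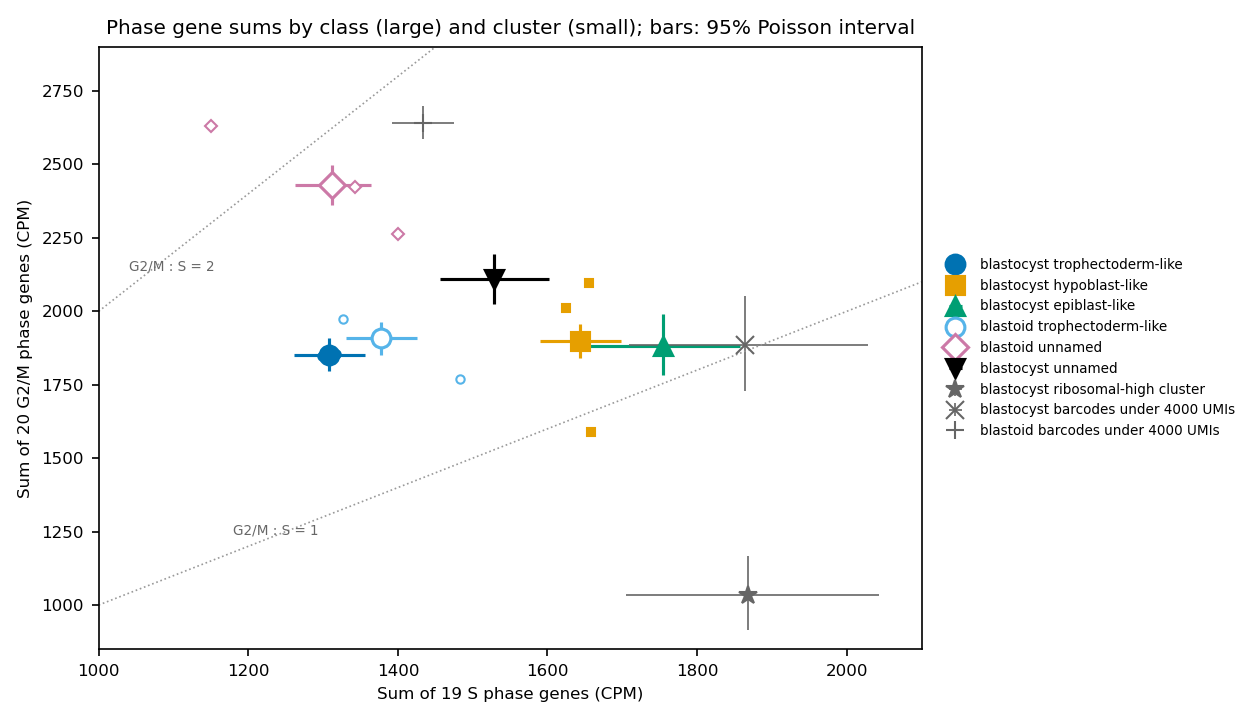
Summed CPM of the 20 G2/M genes against summed CPM of the 19 S phase genes. Large points are classes, with bars for exact 95% Poisson intervals, and small points are the clusters of classes that hold several. Grey points are the ribosomal-high nuclei and the shallow barcodes of each library, and dotted lines mark fixed ratios of G2/M to S. In G2/M UMIs per S phase UMI, blastocyst trophectoderm-like nuclei (1.42) lie above hypoblast-like (1.16) and epiblast-like nuclei (1.07). Unnamed blastoid nuclei (1.85) lie above the other classes shown.

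Per nucleus, each kept nucleus was thinned to 4000 UMIs and called S-high or G2/M-high with at least 5 UMIs over the genes of that phase. This cut divides a continuous range of counts. Nuclei with 4 or 5 UMIs made up 17.1% to 31.5% of the 5 main classes for S phase and 12.8% to 22.6% for G2/M. The mean number of S phase UMIs was 4.95 ± 2.77 (SD over nuclei) in blastocyst trophectoderm-like, 6.54 ± 2.82 in hypoblast-like, 7.19 ± 2.85 in epiblast-like, 5.39 ± 2.80 in blastoid trophectoderm-like and 5.48 ± 2.64 in unnamed blastoid nuclei. The mean number of G2/M UMIs was 6.80 ± 5.68, 7.36 ± 5.16, 7.46 ± 4.61, 7.33 ± 4.76 and 9.69 ± 6.10 in the same order. The SD over nuclei was larger than any difference between these class means.

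G2/M genes varied far more between nuclei of a class than S phase genes. The variance of the summed thinned count divided by its mean, which is near 1 for pure counting error, was 4.74, 3.62 and 2.85 for G2/M in the blastocyst lineages, in the order above, and 3.09 and 3.85 in the trophectoderm-like and unnamed blastoid classes. For S phase it was 1.55, 1.21, 1.13, 1.46 and 1.27 in the same order. S-high nuclei made up 54.2% (47.5% to 60.8%) of blastocyst trophectoderm-like, 79.5% (74.2% to 84.2%) of hypoblast-like and 84.3% (73.6% to 91.9%) of epiblast-like nuclei. In the blastoid they made up 61.6% (53.2% to 69.6%) of trophectoderm-like and 57.4% (48.8% to 65.7%) of unnamed nuclei. G2/M-high nuclei made up 55.9% (49.2% to 62.5%), 64.4% (58.3% to 70.2%) and 75.7% (64.0% to 85.2%) of the blastocyst classes, and 68.5% (60.3% to 75.9%) and 78.7% (71.0% to 85.2%) of the blastoid classes. Nuclei high in either phase made up 76.2%, 92.0%, 95.7%, 85.6% and 90.1% of the 5 classes. Without thinning the S-high shares were 90.7%, 94.3%, 95.7%, 96.6% and 96.5%, and the G2/M-high shares 75.8%, 79.9%, 88.6%, 96.6% and 94.3%. One gene carried much of the S-high shares: without POLA1 they were 28.2%, 58.7% and 68.6% in the blastocyst classes and 38.4% and 41.1% in the blastoid classes, which turned the order of the last pair. With another thinning seed the epiblast-like S-high share moved to 70%, so its place above the hypoblast-like share is not stable.

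These shares are not shares of cycling cells. RNA with the makeup of the barcodes under 4000 UMIs, drawn to the same depth, would be S-high in 67.8% of draws for the blastoid and 86.5% for the blastocyst, and G2/M-high in 98.0% and 87.1%. The S-high and G2/M-high shares of all 5 main classes lie under those levels. The levels are Poisson shares at 1 pooled mean per library and leave out any spread between barcodes. Counts that spread more, like the G2/M counts here, can fall under such a level at a like mean. Epiblast-like nuclei had a G2/M mean of 7.46 against 7.54 for the shallow RNA. The comparison therefore cannot tell how many nuclei cycle, and no share of cycling nuclei was read. What the shallow barcodes hold was not tested. The epiblast-like class had a higher G2/M-high share than the hypoblast-like class at a slightly lower summed level, and no order is read from that pair. The G2/M variance over its mean needs no cut. At 1000 UMIs it was 1.60 in kept blastoid nuclei and 1.25 in 1652 shallow blastoid barcodes, whereas it was 1.66 in kept blastocyst nuclei and 1.67 in 106 shallow ones.

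**Figure D3:**
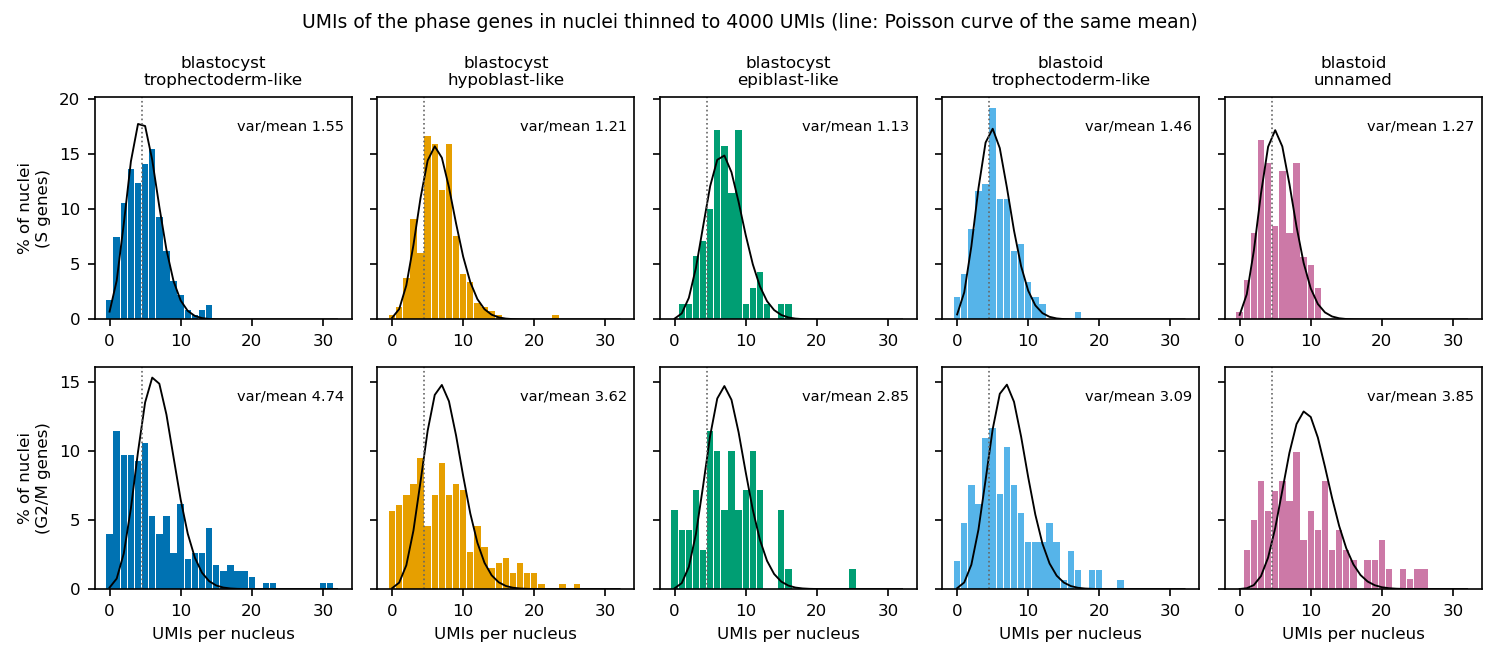
Distribution over nuclei of the summed thinned UMIs of the S phase genes and of the G2/M genes, by class, at 4000 UMIs per nucleus. The S phase means run from 4.95 to 7.19 with similar widths, and the G2/M distributions are broader, with a mean of 9.69 in unnamed blastoid nuclei.

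The shallow barcodes held much phase RNA of a different makeup. Ribosomal protein transcripts made up 15.6% of UMIs in the 1656 shallow blastoid barcodes, which had a median of 1927 UMIs, and 4.07% in the 140 shallow blastocyst barcodes. These are the barcodes under 4000 UMIs, out of 1669 and 251, that met the gene and mitochondrial limits. In the blastoid 4 of 19 S phase genes and 5 of 20 G2/M genes were at least 2-fold higher there than in kept nuclei, beside 18.2% of all genes, and 3 of 19 and 3 of 20 were lower, beside 44.9%. In the blastocyst 5 of 19 and 4 of 20 were higher, beside 35.5%, and 0 of 19 and 3 of 20 were lower, beside 5.24%. PCNA was read at 214 CPM in shallow and 35.3 CPM in kept blastoid barcodes, a ratio of 6.07 (5.09 to 7.29). UBE2C stood at 188 against 48.4 CPM, a ratio of 3.88, MCM5 at 84.4 against 20.8 CPM, a ratio of 4.06, and MKI67 was 2.59 times higher. POLA1 stood at 72.1 against 366 CPM, 5.07 times lower, DTL was 3.52 times lower, CHAF1B 3.08 times and BUB1B 2.88 times lower. In shallow blastocyst barcodes PCNA was 4.88 times and UBE2C 4.8 times higher, and BUB1B 2.46 times and ANLN 2.04 times lower, than in kept nuclei.

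Within each library the G2/M genes were high in the same nuclei. For each gene, nuclei were called G2/M-high from the other 19 genes only, so the gene itself took no part in the choice. At least 2-fold higher in G2/M-high nuclei were 16 of 20 genes in the blastocyst, beside 2.7% of all genes, and 13 of 20 in the blastoid, beside 4.19%. The ratio was above 1 for 20 of 20 in both libraries, with median ratios of 2.53 and 2.17. In the blastocyst TPX2 was highest, at 216 against 44.0 CPM, a ratio of 4.91 (3.99 to 6.10). CENPF followed at 340 against 94.4 CPM (3.60, 3.13 to 4.15) and MKI67 at 64.1 against 18.3 CPM (3.5, 2.51 to 4.98). In the blastoid AURKB (2.70), BUB1B (2.64), HMMR (2.58) and NDC80 (2.55) led. Some members hardly followed the others: ANLN had a ratio of 1.25 (1.11 to 1.40) and NUF2 of 1.54 in the blastocyst, and AURKA had 1.10 (0.732 to 1.70), UBE2C 1.26 and CCNB1 1.29 in the blastoid. G2/M-high nuclei had more UMIs before thinning, a median of 10924 against 7618.5 in blastocyst trophectoderm-like and 15578.5 against 12448.5 in blastoid trophectoderm-like nuclei, and the part of this difference was not tested.

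The same division was made inside single classes. At least 2-fold higher in G2/M-high nuclei were 17 of 20 genes in blastocyst trophectoderm-like nuclei (3.96% of all genes), 12 of 20 in hypoblast-like (3.81%), 9 of 20 in epiblast-like (5.06%) and 12 of 20 in unnamed blastocyst nuclei (4.83%). In the blastoid there were 11 of 20 in trophectoderm-like (4.41%) and 8 of 20 in unnamed nuclei (4.48%). The epiblast-like count rests on 53 nuclei against 17. Ratios under 1 were found for AURKB, NUF2 and NDC80 in epiblast-like nuclei and for AURKA in unnamed blastoid nuclei. In blastocyst trophectoderm-like nuclei the ratios were high, with TPX2 at 8.07 (5.37 to 12.6), MKI67 at 6.44, KIF11 at 4.91, TOP2A at 4.54 and a median of 3.08. Over the 6 classes TPX2 ranged from 2.33 to 8.07, TOP2A from 1.99 to 4.54 and CENPF from 1.45 to 4.65.

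**Figure D4:**
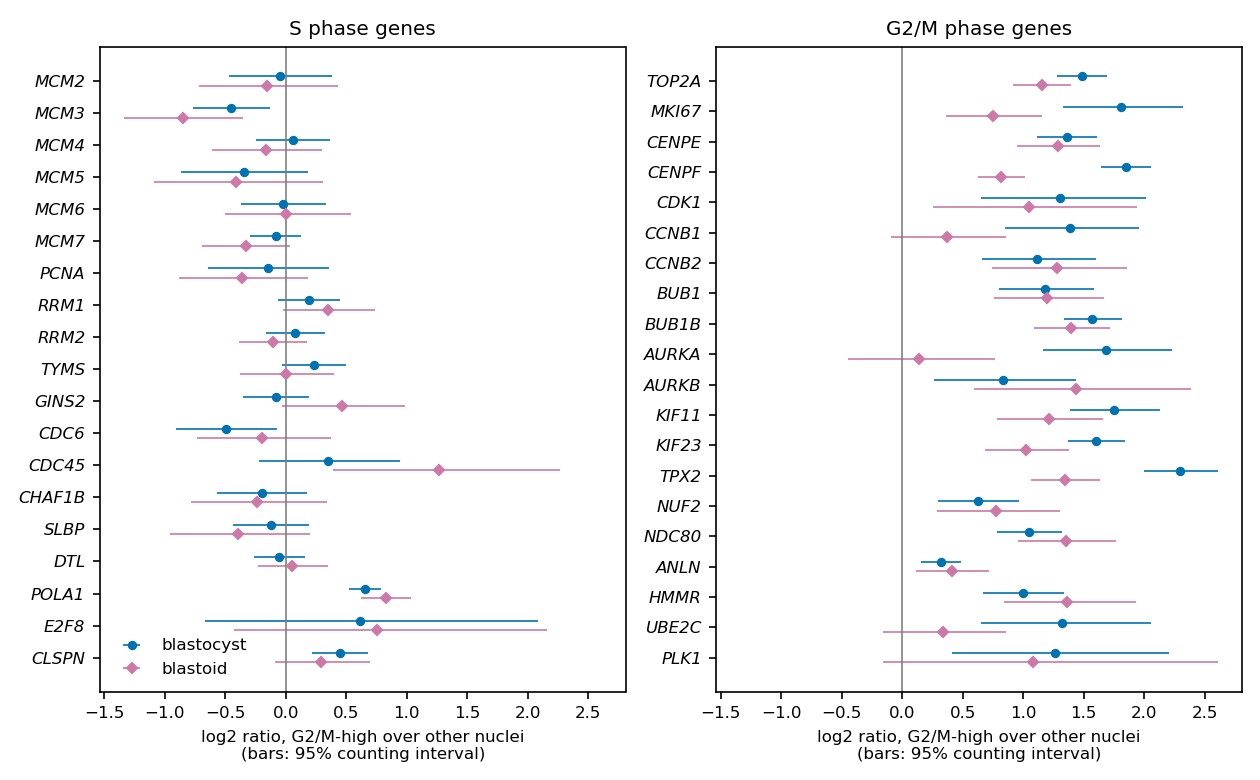
Ratio of G2/M-high to other nuclei for each of the 39 genes in both libraries on a log axis, with the gene itself left out of the choice of nuclei and exact 95% intervals. G2/M genes lie above 1 in both libraries, up to 4.91 for TPX2 in the blastocyst, while S phase genes scatter around 1 with POLA1 at 1.57 and 1.77.

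Most S phase genes did not follow this division. In G2/M-high nuclei 0 of 19 were at least 2-fold higher in the blastocyst and 1 of 19 in the blastoid, CDC45 at 2.40 (1.31 to 4.82), with median ratios of 0.967 and 0.928. MCM3 was lower, at ratios of 0.732 in the blastocyst and 0.554 in the blastoid. POLA1 was higher in G2/M-high nuclei. It stood at 452 against 287 CPM in the blastocyst, a ratio of 1.57 (1.44 to 1.72), and at 408 against 230 CPM in the blastoid, a ratio of 1.77 (1.54 to 2.05), and its ratio was above 1 in 6 of 6 classes (1.07 to 1.99). CLSPN had ratios of 1.36 (1.16 to 1.60) in the blastocyst and 1.23 (0.939 to 1.62) in the blastoid, above 1 in 5 of 6 classes. The reverse division gave smaller ratios. Between nuclei S-high by the other genes and the rest, the ratio was above 1 for 17 of 19 S phase genes in both libraries, and 0 of 19 were at least 2-fold higher, beside 3.45% of all genes in the blastocyst and 3.54% in the blastoid, with median ratios of 1.22 and 1.15. Inside classes the log2 ratio was above 0 for fewer of the 19 in most cases: 15 in blastocyst trophectoderm-like, 11 in hypoblast-like, 11 in unnamed blastocyst, 11 in blastoid trophectoderm-like and 7 in epiblast-like nuclei, against 18 in unnamed blastoid nuclei. The median log2 ratios were 0.10, 0.12, 0.06, 0.07, -0.31 and 0.36 in that order. Over all genes they were 0.02, -0.0045, 0.02, 0.03, -0.18 and 0.04. With all 19 genes the epiblast-like division was 59 nuclei against 11. Its median ratio without the floor of 3 UMIs was 1.03, so no direction is read from that class. Under the same S-high division 16 of 20 G2/M genes were above 0 in blastoid trophectoderm-like nuclei and 6 of 20 in unnamed blastoid nuclei. Their median log2 ratios were 0.30 and -0.19.

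Fixed lists of other cell-cycle genes, which took no part in the choice of nuclei, were compared in the same nuclei. Of the other G2/M genes, 31 of 57 were at least 2-fold higher in G2/M-high blastocyst nuclei and 30 of 57 in blastoid nuclei, beside 2.7% and 4.19% of all genes, with median log2 ratios of 1.13 and 1.07. They were led by GAS2L3 (5.11), CENPA (4.58), the centromeric histone, and TTK (3.91), a checkpoint kinase, in the blastocyst, and by ASPM (4.43), KIF14 (4.07) and KIF18A (3.66) in the blastoid. Of the other S phase genes 0 of 48 passed in the blastocyst and 1 of 47, MCM8 at 2.18, in the blastoid, and of the G1/S regulators 0 of 18 passed in either. Among genes of no list the 5 highest in the blastocyst were SHCBP1 (3.47), TROAP, ARHGAP19, TICRR and KIF18B. In the blastoid they were SKAP1 (4.65), NRXN3 (4.25), DEPDC1 (3.76), AJAP1 (3.58) and GRM8 (3.53). SKAP1 and GRM8 are also among the 10 leading genes of clusters of unnamed blastoid nuclei, which gave 111 of the 211 G2/M-high and 30 of the 76 other blastoid nuclei. Within blastoid trophectoderm-like nuclei DEPDC1 (3.86) and ARHGAP19 (3.34) were highest.

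The same lists were compared between classes, and the shares of all genes given for each comparison apply here too. In these comparisons the anaphase-promoting complex and endocycle list includes the member E2F8, which was already counted above. Some other genes stand in several lists, among them CCNE1 and CCNE2, so the list counts are not independent. Between blastocyst trophectoderm-like and hypoblast-like nuclei, 9 of 48 other S phase genes were at least 2-fold lower and 1 higher, beside 18.2% and 15.2% of all genes, with a median of -0.48. CDCA7 was 4.31 times and RAD54L 3.79 times lower. Of the other G2/M genes 2 of 57 were lower (PBK and KIF15) and 1 higher, the centromere gene CENPI at 5.02 (4.23 to 5.99), with a median of -0.30. The remaining lists had 3 of 18 G1/S regulators higher and 1 lower (E2F3), 4 of 15 CDK inhibitors and quiescence genes lower and 0 higher, 1 of 14 anaphase-promoting complex and endocycle genes higher and 2 lower, and 2 of 15 p53 targets higher and 4 lower. Between the trophectoderm-like classes of blastoid and blastocyst, 5 of 48 other S phase genes were higher, among them the licensing factor CDT1 at 3.04, and 1 lower, the DNA ligase LIG1 by 2.34 times, beside 20.2% of all genes higher and 14.5% lower. Of the other G2/M genes 4 of 57 were higher, among them SKA1 at 2.26, and 0 lower. Of the G1/S regulators 5 of 19 were higher and 4 lower, with cyclin CCND1 at 155 against 9 UMIs, a ratio of 17.0 (8.73 to 37.9), SKP2 at 3.59 and CDK6 at 3.13, and with CCND2 3.98 times and CDC25A 2.64 times lower. Of the CDK inhibitors and quiescence genes 3 of 16 were higher and 2 lower, of the anaphase-promoting complex and endocycle genes 1 of 15 was higher, and of the p53 targets 2 of 14 were higher and 2 lower. In unnamed against trophectoderm-like blastoid nuclei 4 of 57 other G2/M genes were higher and none lower, beside 21.5% and 17.2% of all genes, led by LBR (4.09), TMPO (2.33) and NCAPG (2.11), and RB1, the repressor of E2F, was 2.96 times higher. Of the other S phase genes 2 of 47 were higher and 2 lower there, and of the G1/S regulators 4 of 18 were higher and 1 lower. The CDK inhibitors and quiescence genes had 5 of 17 higher and 3 lower, and the anaphase-promoting complex and endocycle genes 3 of 15 higher and 0 lower. Among the p53 targets 1 of 14 was higher and 5 were lower, with a median of -0.61.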

How the data were processed

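Per the labels' protocols, nuclei from frozen material were processed with a 10x Genomics 3' v3.1 kit. The authors deposited raw UMI counts per gene and barcode. Cell Ranger 7.1.0 and Seurat 4.3.0 are named in the submitters' processing notes, whereas the file header names Cell Ranger 7.2.0. The genome build is not given in the sources used here, and depth differed between the libraries as stated in the report. Barcodes with at least 4000 UMIs, at least 500 genes and at most 10% mitochondrial UMIs were kept, and doublets were called and removed (0.8% expected per 1000 nuclei, 1 blastoid and 4 blastocyst). Nuclei were clustered with Scanpy 1.11.5 and leidenalg 0.10.2 (resolution 1, 2000 variable genes, 30 components, 15 neighbours) without cell-cycle genes. Levels are class sums of UMIs per 1000000 UMIs (CPM), with exact Poisson, binomial or conditional intervals. A gene needed 10 UMIs over both sums for a ratio, sums under 3 UMIs were set to 3 in log2 ratios, and 2-fold counts stand beside those over all such genes. Scripts were tested on simulated data.

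A cluster was named trophectoderm-like, hypoblast-like or epiblast-like with at least 3 markers of that lineage and 2 more than of any other list. The neural, mesoderm and fibroblast lists competed but gave no name, so clusters led by the neural list stayed unnamed, and clusters above 3 times the library's median ribosomal share were kept apart. This rule was chosen after clusters, names and their phase values had been seen. The members and lists were chosen with earlier results of these data known. The named genes are the 39 members, the 3 highest and 3 lowest ratios of each other list among genes with at least 100 UMIs, and 5 genes of no list with at least 50 CPM; 1 gene that this rule names is not reported here. The 10 UMI cut, the variance measures and the contrasts within classes were added after seeing the data.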

Additional observations from a re-analysis of the deposited data

Results flagged for a closer look

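Barcodes under 4000 UMIs lie outside the main measurement and still held UMIs of the phase genes. Only those that met the gene and mitochondrial limits were counted, 1656 of 1669 in the blastoid and 140 of 251 in the blastocyst. In the blastoid they held 4652 UMIs of the S phase genes (1433 CPM) and 8573 UMIs of the G2/M genes (2641 CPM). In the blastocyst they held 536 UMIs of the S phase genes (1864 CPM) and 542 UMIs of the G2/M genes (1885 CPM). They are listed because these levels are above the limit that a count of 0 allows (0.924 CPM and 10.4 CPM), which is a low bar at such counts and says nothing about their source.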

How the results depend on the processing

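No paired analysis was possible because each group is 1 library. For the same reason leaving out a replicate was not run. No member ratio past 2-fold turned its direction, while some smaller ones did. Both member medians of hypoblast-like over epiblast-like nuclei turned at a higher UMI minimum, to 0.10 for S phase and -0.09 for G2/M in log2. In every setting that gave both classes, blastocyst trophectoderm-like nuclei had lower S-high, G2/M-high and combined shares, and a higher G2/M per S balance, than hypoblast-like nuclei. The higher balance of unnamed over trophectoderm-like blastoid nuclei also held in every setting. In at least 1 setting each, the order turned between hypoblast-like and epiblast-like nuclei (S-high, combined, balance), between the blastoid classes (all 3 shares), and between the trophectoderm-like classes of the libraries (G2/M-high, combined, balance). The shares themselves followed the cut. In the lists below the classes are, in order, the trophectoderm-like, hypoblast-like and then epiblast-like blastocyst nuclei, followed by blastoid trophectoderm-like and unnamed.

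With a cut of 3 UMIs the G2/M-high shares were 74.9%, 81.4%, 85.7%, 85.6% and 92.2%, the S-high shares 80.2%, 94.7%, 97.1%, 85.6% and 87.9%, and the combined shares 93.0%, 97.7%, 97.1%, 97.3% and 98.6%. There the combined epiblast-like share lay under the hypoblast-like one. With a cut of 8 UMIs they were 36.1%, 43.9%, 48.6%, 39.7% and 57.4%, then 15.4%, 35.2%, 41.4%, 20.5% and 27.7%, then 45.4%, 65.5%, 70%, 52.1% and 70.9%. With a cut of 10 UMIs, chosen after seeing the data, they were 28.2%, 29.5%, 32.9%, 26.7% and 44.0%, then 5.73%, 11.7%, 12.9%, 7.53% and 7.80%, then 33%, 37.9%, 41.4%, 30.1% and 51.1%, and the median log2 ratio of other G2/M genes in the blastocyst was 0.80.

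Without the most abundant gene of each phase the S-high shares were 28.2%, 58.7%, 68.6%, 38.4% and 41.1%, the combined shares 65.2%, 86.4% and 74.0% (trophectoderm-like, hypoblast-like, blastoid trophectoderm-like), the G2/M-high share of blastoid trophectoderm-like nuclei 57.5%, and the balances 1.83, 1.29, 1.17, 1.62 and 2.18. With nuclei and thinning at 2000 UMIs and a cut of 3, G2/M-high shares were 45.8%, 55.0%, 60%, 84.8% and 71.3%, S-high shares 58.5%, 63.6% and 52.1% and combined shares 81.7%, 83.6% and 92.7% (hypoblast-like, epiblast-like, blastoid trophectoderm-like), and balances 1.34 and 1.64 in the trophectoderm-like classes. There the blastoid trophectoderm-like G2/M-high and combined shares lay above those of unnamed nuclei (86.0% combined), and its balance above that of the blastocyst class, both against the order in the report. A higher UMI minimum per nucleus gave an epiblast-like balance of 1.23, above the hypoblast-like 1.11. Keeping doublets gave a blastoid trophectoderm-like balance of 1.28, and combined blastoid shares of 90.2% and 86.4% in turned order. Another thinning seed gave epiblast-like S-high and combined shares of 70% and 87.1%, under the hypoblast-like 74.6% and 89.4%. Equal weight of nuclei gave balances of 1.29, 1.08, 1.05, 1.32 and 1.75. Naming the ribosomal-high cluster gave a trophectoderm-like balance of 1.30. At a resolution of 0.5, without markers among the variable genes, or with doublets kept, no epiblast-like class was found, so it has no value there. Depth limits the scarce members: E2F8 had 29 UMIs in all kept blastocyst nuclei.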
